A study of Mus musculus with 10 samples.

Results

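The genes described here encode 9 transcription factors of heart muscle: Gata4, Gata6, Nkx2-5, Tbx5, Tbx20, Hand2, Mef2a, Mef2c and Srf. They were chosen by name, with earlier results of these data known, and all 9 of 9 were on the array, among 12394 genes with a symbol of their own. The array annotation gave them 22 probe sets: 5 for Mef2a, 5 for Mef2c, 2 each for Gata4, Gata6, Tbx5, Tbx20 and Srf, and 1 each for Nkx2-5 and Hand2. A probe set is a group of short oligonucleotides that together read 1 transcript or part of it, and levels were compared between mice within a probe set and never between probe sets. Of the 22, 20 were bright enough to be tested.

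RNA of the right ventricle was measured in 10 mice of strain 129SV, 1 array per mouse, to ask whether endurance training acts differently on mice that lack 1 working copy of plakoglobin (Jup), a protein of the junctions between heart muscle cells. The groups were trained plakoglobin (+/-) mice (n = 4), trained wt mice (n = 4), an untrained plakoglobin (+/-) mouse (n = 1) and an untrained wt mouse (n = 1). Both trained groups held 2 males and 2 females, aged 6 months, which swam in water of 35 °C 6 times a week, at first for 5 min and in the end for 90 min. Both untrained mice were females aged 10 months, so that training and age cannot be told apart, and an untrained group has no replicate. The labels name no driver line or Cre for the plakoglobin (+/-) mice.

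These proteins bind short DNA motifs in front of, or at a distance from, the genes of the heart muscle cell and act in overlapping complexes, in which GATA, NKX2-5, T-box and MEF2 factors and SRF can share a promoter. They build the heart in the embryo, and in the adult ventricle several of them, above all GATA4, MEF2 and SRF, are known to be modified or recruited when the load on the muscle rises. Much of that control acts on the proteins, through phosphorylation, export from the nucleus and binding of coactivators, and is not read by an RNA array. A gene long used as a readout of these factors is Nppa, which encodes atrial natriuretic peptide and whose promoter binds several of them.

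The promoters of Srf and of the target gene Nppa are shown because these 2 genes and the SRF coactivator Myocd are set side by side below. Each is the run of 250 bases before the transcription start in RefSeq (mouse build GRCm38.p6), read 5′ to 3′ on the strand of the gene. In Srf (chr17:46556163-46556412, minus strand) the capitals mark matches to the CArG box, the motif that SRF binds. In Nppa (chr4:148000472-148000721, plus strand) they mark, from left to right, a T-box motif (AGGTGT on the other strand), an NKX2-5 type site (TNAAGTG) and 2 GATA sites (GATAA, the second on the other strand).
Srf: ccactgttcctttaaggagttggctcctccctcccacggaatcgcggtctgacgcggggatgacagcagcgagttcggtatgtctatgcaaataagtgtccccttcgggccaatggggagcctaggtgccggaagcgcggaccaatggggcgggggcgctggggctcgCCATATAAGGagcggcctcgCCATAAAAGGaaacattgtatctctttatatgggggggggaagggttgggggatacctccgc
Nppa: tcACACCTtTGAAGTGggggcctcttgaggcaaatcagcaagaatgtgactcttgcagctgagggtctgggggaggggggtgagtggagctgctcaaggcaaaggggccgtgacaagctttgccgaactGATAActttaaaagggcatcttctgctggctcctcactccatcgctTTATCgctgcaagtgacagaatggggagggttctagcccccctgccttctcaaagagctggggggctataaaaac
The Srf promoter held 2 CArG boxes, at bases -82 to -73 and -62 to -53 from the start, and 1.47% of 32851 such mouse promoter windows held one. The Nppa promoter held GATAA at -121 to -117 and -75 to -71, TNAAGTG at -241 to -235 and AGGTGT at -248 to -243, motifs found on either strand in 22.6%, 10.1% and 11.8% of the windows. No marked motif overlapped another. The CArG box and the MEF2 site, searched by name on both strands, had no exact match in this Nppa window. The MEF2 site had none in the Srf window either (it was in 2.92% of all). Only exact matches to a fixed pattern counted (CCWWWWWWGG for the CArG box, W being A or T), so variants of these sites were not searched. Of the remaining members, Hand2 had 2 GATAA matches and 1 of 3 Mef2c promoters had 2 GATAA and 1 AGGTGT, while the windows of Tbx20, Mef2a and Nkx2-5 held no match to the motifs searched. Those of Gata4, Gata6 and Tbx5 were not searched here. A match describes the letters only.

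The quality of 3 arrays touches the results for these genes. The GAPDH control has probe sets near both ends of its transcript, and the signal of the 3' end over that of the 5' end grows when RNA is shortened or copied incompletely. This GAPDH ratio was 2.98 in trained plakoglobin (+/-) replicate 1, 17.8 in trained wt replicate 2 and 2.5 in trained wt replicate 1, against 0.849 to 1.02 on the other 7 arrays. Actin probe sets did not set all 3 apart alike. Their ratio came to 2.65, 1.29 and 3.05 on these arrays, in the same order, and to 0.932 to 1.24 on the other 7. Trained wt replicate 2 thus stood apart mainly by GAPDH, and the cause was not tested. All 3 arrays of high GAPDH ratio were of trained mice and 2 of the 3 were of males. The median signal per array was 897.8 to 1150.0. The number of arrays limits the precision. Jup itself read 1991.7, 3519.9, 2229.7 and 2362.8 in the trained mice labelled plakoglobin (+/-) and 2928.3, 3206.9, 3995.5 and 4322.0 in the trained wt mice, and it read 3156.9 in the untrained mouse labelled plakoglobin (+/-) and 2386.8 in the untrained wt mouse. The ranges overlapped, so genotypes are given as labelled. The summed signal of 7 heart muscle markers (such as Myh6, Tnnt2 and Actc1) lay between 1279000 and 1678000 in trained mice and between 1605000 and 1835000 in untrained mice, so that the tissue label fits its defining markers. Of 7 leukocyte markers tested 6 were lower in trained mice, with the sum of all 8 at 23670 to 40130 in trained mice and 39270 to 39570 in untrained mice, and both tested lung epithelium markers were lower, with the sum of 3 at 1723 to 3262 in trained mice and 3390 to 3479 in untrained mice. No marker of these lists was at 0, and their part in the training values below was not tested.

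**Figure D1:**
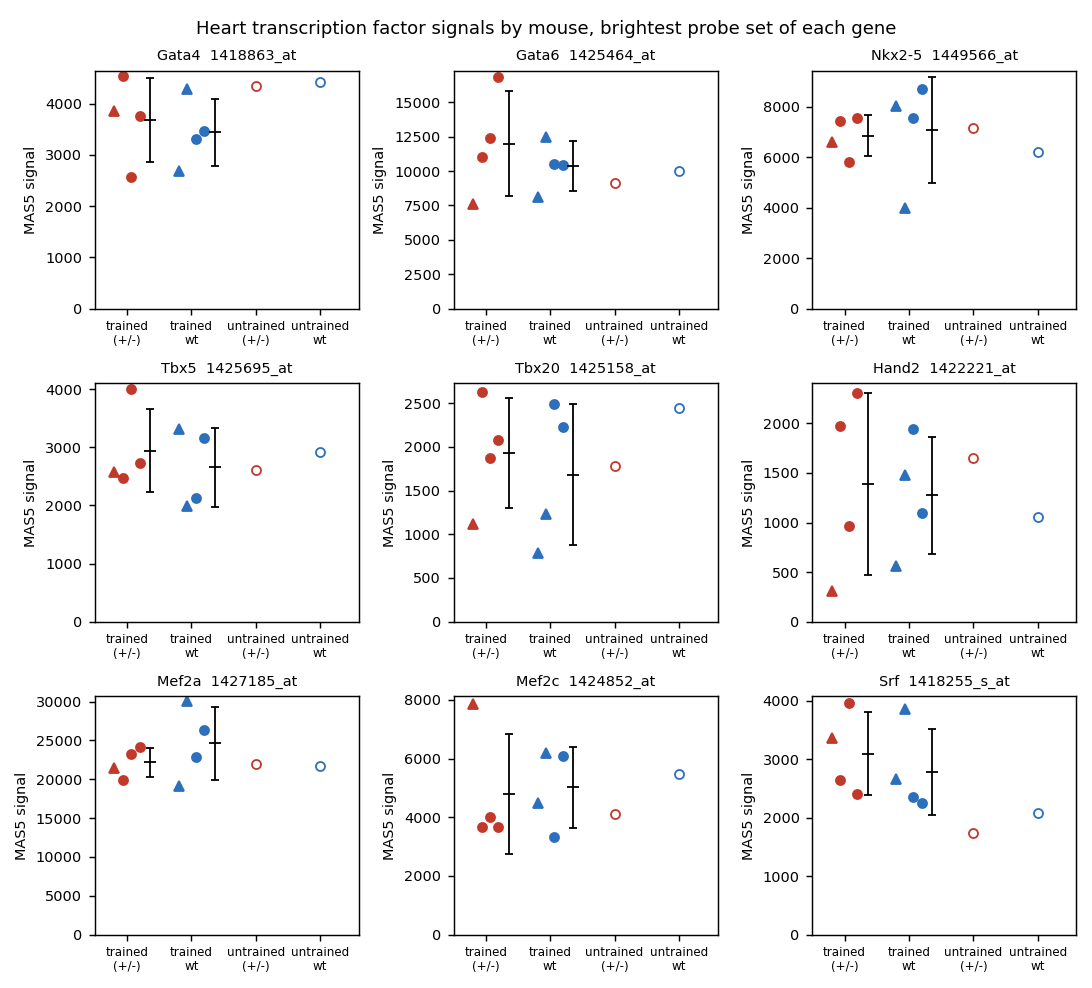
MAS5 signal (linear axis from 0) of the brightest probe set of each of the 9 genes, 1 point per mouse, in trained plakoglobin (+/-), trained wt, untrained plakoglobin (+/-) and untrained wt mice. Triangles are the 3 arrays of high GAPDH ratio, open circles the untrained mice, and bars the mean ± SD of the 4 trained mice of a group. Srf is the panel in which all 8 trained mice lie above both untrained mice.

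The first comparison asked whether the right ventricle of trained mice differed from that of untrained mice in the RNA of these factors. By the test across all probe sets it was not shown to differ for any of them: of the 20 member probe sets 0 passed, 10 were higher and 10 lower in trained mice (50.2% of all probe sets were lower), and the lowest adjusted p was 0.541 (limma, Benjamini-Hochberg over all 13576 probe sets tested). Over all probe sets 0.626% passed. At an unadjusted p under 0.05 there was 1 of the 20, a probe set of Srf, where 8.68% of all probe sets reached that. Both untrained mice were female, so these differences, fitted with a sex term, are those of the females. With no sex term 4 were higher and 16 lower, and with the GAPDH ratio as a covariate 14 were higher and 6 lower. The median log2 difference (trained minus untrained) was -0.02 over the 20 and -0.0022 over all. In 1 of the 20, the same Srf probe set, the 8 trained mice did not overlap the 2 untrained mice, against 9.24% of all probe sets in either direction and 4.63% with trained mice higher. In bulk tissue, fewer cells that express a gene and less RNA per cell cannot be told apart.

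Srf encodes serum response factor, which binds CArG boxes in genes of the contractile apparatus and of the immediate early response. Its brighter probe set (1418255_s_at) read 3357.4, 2641.8, 3960.4 and 2410.8 in the trained plakoglobin (+/-) mice, 2665.3, 3850.5, 2347.3 and 2256.8 in the trained wt mice, 1730.7 in the untrained plakoglobin (+/-) mouse and 2071.2 in the untrained wt mouse. All 8 trained mice were above both untrained mice, with means of 2936 ± 687.3 (SD, n = 8) and 1901 ± 240.8 (SD, n = 2). The log2 difference in the fit with a sex term was 0.67 (SE 0.29, 95% interval 0.03 to 1.32, limma adjusted p = 0.541), and did not pass. The second Srf probe set (1418256_at) gave the opposite order: 2123.8, 3172.3, 2487.3 and 2843.3 in the trained plakoglobin (+/-) mice, 3634.9, 1325.2, 2509.8 and 2511.3 in the trained wt mice, 3925.0 in the untrained plakoglobin (+/-) mouse and 2643.3 in the untrained wt mouse. Its log2 difference was -0.55 (SE 0.34, adjusted p = 0.742), and 5 of 8 trained mice lay below both untrained mice. The direction of Srf thus depends on the probe set. The suffix of 1418255_s_at marks probes that may match more than 1 transcript.

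The GATA factors bind GATAA-type motifs, and GATA4 is known for its part in the hypertrophic response of the adult heart. The brighter Gata4 probe set (1418863_at) read 3852.5, 4542.0, 2561.8 and 3762.5 in the trained plakoglobin (+/-) mice, 2689.3, 4281.0, 3317.9 and 3459.4 in the trained wt mice, 4340.5 in the untrained plakoglobin (+/-) mouse and 4416.0 in the untrained wt mouse. The 2 untrained mice were close together and 7 of 8 trained mice lay below both, a log2 difference of -0.34 (95% interval -0.94 to 0.26, limma adjusted p = 0.831). The second Gata4 probe set (1418864_at) gave -0.99 (SE 1.07, limma adjusted p = 0.89), the same sign. Gata6, which overlaps with Gata4 in function, read 7632.9, 11052.7, 12421.8 and 16829.5 in the trained plakoglobin (+/-) mice, 8087.4, 12498.0, 10513.7 and 10412.8 in the trained wt mice, 9140.6 in the untrained plakoglobin (+/-) mouse and 10004.2 in the untrained wt mouse by its brighter probe set (1425464_at). The trained range enclosed both untrained mice and the log2 difference was 0.43 (95% interval -0.09 to 0.94, limma adjusted p = 0.698). The second probe set of Gata6 (1425463_at) gave -0.12, the opposite sign.

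Nkx2-5 is the homeobox factor that marks the heart muscle lineage, and with Gata4 and Tbx5 it activates many promoters of that lineage. It read 6596.3, 7421.8, 5811.6 and 7551.9 in the trained plakoglobin (+/-) mice, 8036.4, 4002.0, 7549.4 and 8681.6 in the trained wt mice, 7160.9 in the untrained plakoglobin (+/-) mouse and 6183.7 in the untrained wt mouse. The lowest mouse was trained wt replicate 2, the array of the highest GAPDH ratio, and the log2 difference between trained and untrained mice was -0.09 (95% interval -0.72 to 0.54).

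Tbx5 is an activator among the T-box factors, and loss of 1 copy in humans gives heart and limb malformation. Its brighter probe set (1425695_at) read 2578.3, 2480.3, 3998.4 and 2722.8 in the trained plakoglobin (+/-) mice, 3322.4, 1996.2, 2136.7 and 3163.9 in the trained wt mice, 2607.8 in the untrained plakoglobin (+/-) mouse and 2922.3 in the untrained wt mouse. Both untrained mice lay inside the trained range (log2 difference 0.06, 95% interval -0.58 to 0.71). Tbx20, a T-box factor that can repress as well as activate and is needed in adult heart muscle, read 1120.1, 2634.3, 1875.2 and 2084.3 in the trained plakoglobin (+/-) mice, 791.1, 1229.7, 2488.8 and 2223.3 in the trained wt mice, 1784.2 in the untrained plakoglobin (+/-) mouse and 2443.3 in the untrained wt mouse (1425158_at). The low trained mice were the 3 with a high GAPDH ratio, and the log2 difference was -0.21 (95% interval -1.27 to 0.85). Its second probe set (1422219_a_at) was too dim to be tested, at 275.0 to 852.6 in trained mice and 287.0 to 968.1 in untrained mice.

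Hand2, a basic helix-loop-helix factor known for its role in the formation of the right ventricle, read 312.5, 1969.7, 960.1 and 2302.3 in the trained plakoglobin (+/-) mice, 564.1, 1482.2, 1947.7 and 1100.1 in the trained wt mice, 1652.7 in the untrained plakoglobin (+/-) mouse and 1057.1 in the untrained wt mouse. Its highest mouse was 7.37 times its lowest, the widest spread among the brightest probe sets of the 9 genes, and the log2 difference with training was 0.06 (95% interval -1.51 to 1.63).

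MEF2A and MEF2C are MADS box factors, relatives of SRF, which activate genes of muscle contraction and metabolism. The brightest Mef2a probe set (1427185_at) had the narrowest spread of the 9, at 1.58 from the lowest to the highest mouse. It read 21430.6, 19905.1, 23292.0 and 24132.9 in the trained plakoglobin (+/-) mice, 19080.1, 30120.7, 22869.1 and 26376.2 in the trained wt mice, 21968.2 in the untrained plakoglobin (+/-) mouse and 21670.6 in the untrained wt mouse. The untrained mice lay within the trained range (log2 difference 0.24, 95% interval -0.12 to 0.61, limma adjusted p = 0.789). Mef2c by its brightest probe set (1424852_at) read 7863.9, 3653.4, 4007.9 and 3650.9 in the trained plakoglobin (+/-) mice, 4490.0, 6192.3, 3317.9 and 6071.2 in the trained wt mice, 4096.0 in the untrained plakoglobin (+/-) mouse and 5481.7 in the untrained wt mouse. Apart from trained plakoglobin (+/-) replicate 1, its trained mice scattered on both sides of the untrained pair, and the log2 difference was 0.03 (95% interval -0.75 to 0.82).

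The further probe sets of the MEF2 genes went both ways. Those of Mef2a that were tested differed with training by 0.06 to 0.11 on the log2 scale, while those of Mef2c ranged from -1.30 (1451506_at, SE 0.67, limma adjusted p = 0.656) to 0.06. A further Mef2a probe set (1425426_a_at) was left out of the test as too dim. It read 136.0, 396.5, 101.0 and 307.0 in the trained plakoglobin (+/-) mice, 67.0, 57.0, 112.5 and 184.5 in the trained wt mice, 1002.6 in the untrained plakoglobin (+/-) mouse and 997.1 in the untrained wt mouse. All 8 trained mice were below both untrained mice. Readings of 101.0, 67.0 and 57.0 were raised to 104, the floor set before the fit, so only a bound can be given for the difference. With the sex term, so among females, the log2 difference was -2.67 when every probe set was tested (SE 0.59, limma adjusted p = 0.188), which did not pass. With that term the 4 other Mef2a probe sets differed by 0.06 to 0.24, in the other direction. Over all 8 trained mice, with no sex term, the trained over untrained ratio of geometric means was 0.8458 in 1421252_a_at, 0.8347 in 1427186_a_at and 0.8609 in 1452347_at. It was 1.062 in 1427185_at.

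**Figure D2:**
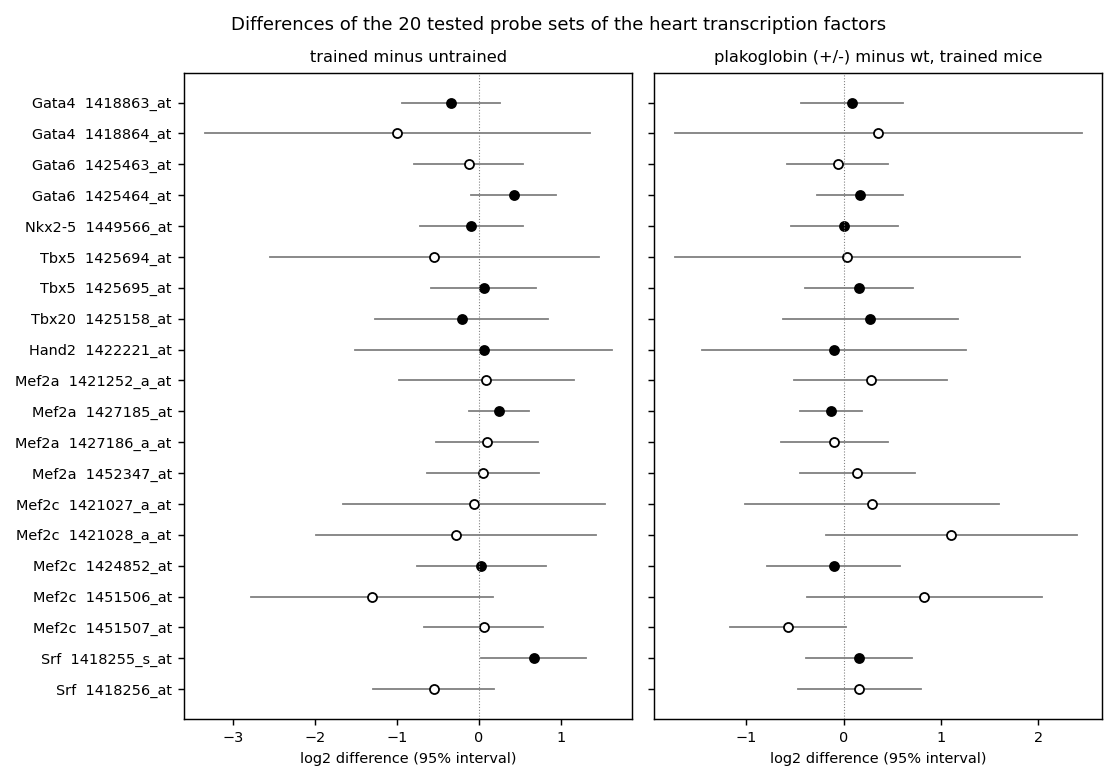
Log2 differences with 95% intervals of the 20 tested probe sets. The left panel shows trained minus untrained mice (fitted over n = 8 and 2 with a sex term). Both untrained mice were female, so its differences are those of the females, and the trained males enter the spread. The right panel shows plakoglobin (+/-) minus wt among trained mice (n = 4 each). Filled points are the brightest probe set of each gene. The interval of Srf 1418255_s_at in the left panel is the only one in either panel that leaves out 0, before any adjustment for the number of tests.

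The second comparison, the one the series was made for, set plakoglobin (+/-) against wt mice after training. None of the 9 genes was shown to differ: 0 of 20 member probe sets passed (lowest limma adjusted p = 1), 0 had an unadjusted p under 0.05, where 2.01% of all probe sets did, and over all probe sets 0% passed. The two-sided exact permutation test of each probe set, 4 against 4 mice, gave 0 of 20 with a lowest unadjusted p of 0.2, where the smallest p possible was 0.0286. In 0 of 20 were the genotypes apart without overlap, against 1.6% of all probe sets. The sign was positive in 14 of 20 and negative in 6, where 48.1% of all probe sets were lower, with a median of 0.15 against 0.01 over all probe sets tested. That balance was not stable: 7 were higher and 13 lower with the GAPDH ratio as a covariate and also among males only, and 8 were higher and 12 lower with trained wt replicate 2 left out.

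By their brightest probe sets the genes differed between the genotypes by at most 0.27 on the log2 scale. Gata4 averaged 3680 ± 822.6 in trained plakoglobin (+/-) mice and 3437 ± 654.7 in trained wt mice (SD, n = 4 each), a log2 difference of 0.09 (95% interval -0.44 to 0.61). Its second probe set gave 0.36 (SE 0.94). Nkx2-5 averaged 6845 ± 808.7 in plakoglobin (+/-) and 7067 ± 2096 in wt mice (log2 difference 0.01, 95% interval -0.54 to 0.56). Mef2a was the most closely bounded, with 22190 ± 1896 in plakoglobin (+/-) and 24610 ± 4729 in wt mice and a log2 difference of -0.13 (95% interval -0.45 to 0.19). Srf averaged 3093 ± 705.0 in plakoglobin (+/-) and 2780 ± 734.9 in wt mice, a log2 difference of 0.16 (95% interval -0.38 to 0.70), and its second probe set gave 0.16 as well. The least bounded was Hand2, at 1386 ± 915.4 in plakoglobin (+/-) and 1274 ± 586.3 in wt mice (95% interval -1.46 to 1.26). Its lowest mouse, trained plakoglobin (+/-) replicate 1 at 312.5, was on an array of high GAPDH ratio.

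The largest genotype differences among the members were in further probe sets of Mef2c, 1.11 in 1421028_a_at and 0.83 (SE 0.54) in 1451506_at, both higher in plakoglobin (+/-) mice, while 1451507_at had the opposite sign. 1421028_a_at read 1028.6, 2429.8, 1914.2 and 2315.8 in trained plakoglobin (+/-) mice and 292.0, 574.6, 1971.7 and 1554.7 in trained wt mice, a log2 difference of 1.11 (SE 0.58, limma unadjusted p = 0.0848). 1451507_at read 683.6, 697.6, 1342.6 and 1124.1 in trained plakoglobin (+/-) mice and 748.1, 2294.3, 1211.6 and 1700.7 in trained wt mice, a log2 difference of -0.57 (SE 0.27, limma unadjusted p = 0.0566). In both the ranges overlapped, and the brightest Mef2c probe set differed by -0.10. The low wt values of 1421028_a_at, 292.0 and 574.6, were those of the wt arrays with a high GAPDH ratio.

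Whether training acted differently in the 2 genotypes was asked with the interaction term, in which each untrained group is 1 mouse assumed to vary like the others. Of the members 0 of 20 passed (lowest limma adjusted p = 1), 0 had an unadjusted p under 0.05, where 3.2% of all probe sets did, and 0% of all passed. The largest value was 2.44 (SE 1.30) in Mef2c 1421028_a_at, and for the brightest probe sets the size was at most 0.74, in Hand2.

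Sex was compared among the trained mice because both genotypes held both sexes. No member passed (0 of 20, lowest limma adjusted p = 0.496; 0.0516% of all probe sets passed), while 16 of 20 were lower in males, where 49.1% of all probe sets were, with a median of -0.42 against 0.01 over all. Once the 3 arrays of high GAPDH ratio were left out, 9 were higher and 11 lower in males. At an unadjusted p under 0.05 there were 3 of 20, against 8.82% of all probe sets. They were Mef2c 1451507_at (log2 difference -0.94, SE 0.27), Mef2a 1427186_a_at (-0.73, SE 0.25) and Gata6 1425464_at (-0.48, SE 0.20). In 2 of 20, both of Mef2a, the 4 males lay below the 4 females without overlap, against 2.91% of all probe sets. Mef2a 1427186_a_at read 2528.8, 4027.4, 2517.3 and 4934.6 in males and 5615.6, 5346.1, 5307.7 and 6045.2 in females. Mef2a 1427185_at read 21430.6, 19905.1, 19080.1 and 22869.1 in males and 23292.0, 24132.9, 30120.7 and 26376.2 in females. In 1427186_a_at the lowest pair of males were those on arrays of high GAPDH ratio, and without the 3 arrays of high ratio 2 of 20 members had an unadjusted p under 0.05. Since both untrained mice were female, the training difference with a sex term equals that of the females.

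The 3 arrays with a high GAPDH ratio read low for a share of the members that was above that of the array as a whole. In 7 of 20 member probe sets (35.0%) all 3 arrays lay below all 7 others, against 5.89% of all probe sets tested. Gata4 1418864_at was the clearest: 97.0 in trained plakoglobin (+/-) replicate 1, 550.6 in trained wt replicate 1 and 278.0 in trained wt replicate 2, against 1016.6 to 2375.8 on the other arrays. Relative to the median of those 7, the wt arrays were at -1.72 and -2.70 on the log2 scale, and the value of 97.0 lay under 104, the floor to which lower signals were raised before the test, so that only a bound can be given for it. Tbx5 1425694_at followed with -3.27, -0.58 and -2.44 on the same arrays, and Mef2c 1421027_a_at with -2.41, -1.95 and -1.57. The remaining 4 were Mef2c 1421028_a_at, Mef2a 1421252_a_at, Tbx20 1425158_at and Gata6 1425463_at. The brighter probe sets of Gata4, Gata6 and Tbx5 did not show the split. All 3 arrays belong to trained mice. With a sex term the training values are those of the females, so only trained wt replicate 2 carries this difference into them. The arrays of males enter the spread. The genotype values of these 7 probe sets, where 2 of the 3 arrays are wt, hold the difference of all 3. With these arrays left out 0 members passed for training (lowest limma adjusted p = 0.408) or genotype (0.8), and with the GAPDH ratio as a covariate 0 passed for either (0.598 and 1).

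**Figure D3:**
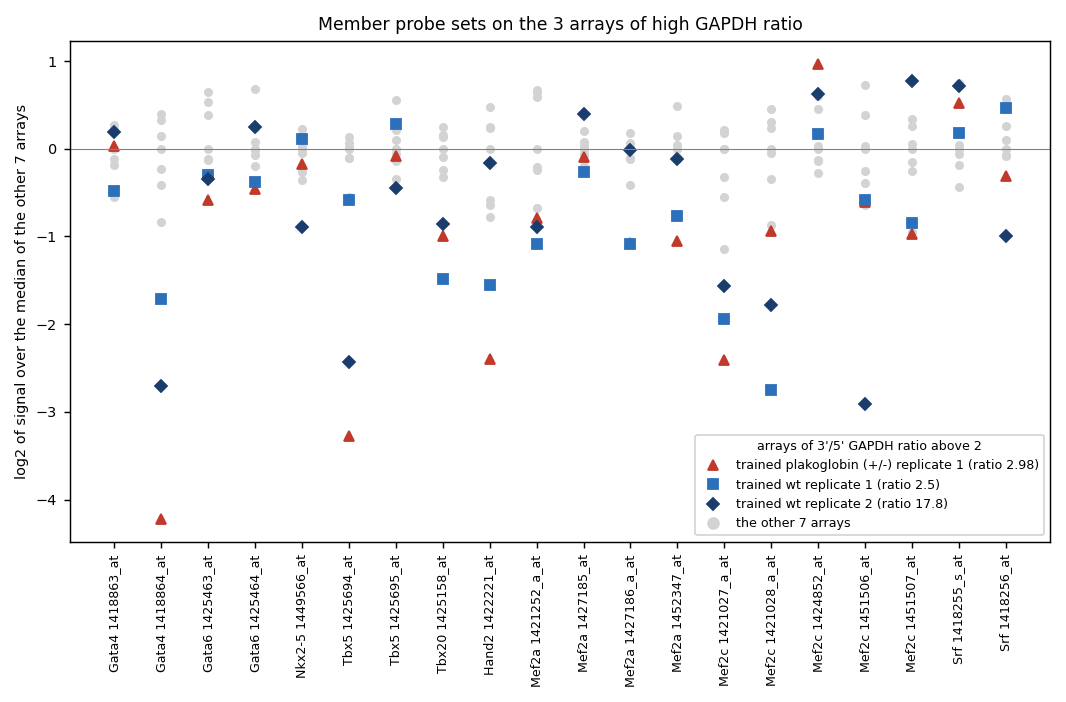
Signal of each tested member probe set relative to the median of the 7 arrays of low GAPDH ratio (log2 scale), for trained plakoglobin (+/-) replicate 1, trained wt replicate 1, trained wt replicate 2 and, in grey, the 7 other arrays. In 7 of the 20 columns all 3 coloured points lie below every grey point, the furthest in Gata4 1418864_at, where the lowest point is a signal under the floor of 104 and drawn as deposited.

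Factors of this kind work through cofactors, and 1 of these was higher in trained mice. Of 15 tested cofactors on a list of 19, 1 passed, upward, where 0.273% of all probe sets did, and the median log2 difference was -0.0033. It was Myocd, which encodes myocardin, the heart and smooth muscle coactivator that binds SRF on CArG boxes. Myocd (1425978_at) read 4443.5, 4826.5, 5191.1 and 5653.7 in the trained plakoglobin (+/-) mice, 4461.5, 5084.1, 4478.5 and 8504.5 in the trained wt mice, 1955.7 in the untrained plakoglobin (+/-) mouse and 2681.3 in the untrained wt mouse. All 8 trained mice were above both untrained mice, and the log2 difference was 1.38 (SE 0.24, limma adjusted p = 0.0274). Leaving out the 3 arrays of high ratio gave 1.52 (adjusted p = 0.00366). The call was lost without either untrained mouse (1.55, adjusted p = 0.129, without the wt one and 1.21, adjusted p = 0.436, without the plakoglobin (+/-) one). It was lost as well without trained plakoglobin (+/-) replicate 3 (adjusted p = 0.0765), trained plakoglobin (+/-) replicate 4 (0.0932) or trained wt replicate 4 (0.0631).

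A second Myocd probe set (1425808_a_at) did not repeat this. It read 254.0, 2204.7, 1113.1 and 1415.2 in the trained plakoglobin (+/-) mice, 753.1, 480.1, 2096.2 and 757.1 in the trained wt mice, 1154.6 in the untrained plakoglobin (+/-) mouse and 1350.2 in the untrained wt mouse, a log2 difference of -0.52 (SE 0.79, limma adjusted p = 0.928). Its 3 lowest trained mice were those on the arrays of high GAPDH ratio. Myocardin is also made in smooth muscle. The 6 of 6 smooth muscle and pericyte markers on the array, none of them at 0, summed to between 52400 and 97050 in trained mice and between 74550 and 75680 in untrained mice, so the trained range enclosed the untrained one.

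The cofactors of the GATA factors, Zfpm1 and Zfpm2 (FOG1 and FOG2), had higher signals in trained mice and did not pass. Zfpm2 (1449314_at) read 2303.8, 2356.7, 4168.0 and 2839.3 in the trained plakoglobin (+/-) mice, 2004.7, 6257.8, 3064.8 and 4640.6 in the trained wt mice, 2085.8 in the untrained plakoglobin (+/-) mouse and 1723.2 in the untrained wt mouse. The log2 difference was 1.18 (SE 0.30, limma adjusted p = 0.156), and 0.25 by a second probe set. Zfpm1 (1451046_at) differed by 0.92 (adjusted p = 0.421) and its second probe set by -0.42. Elk1, a partner of SRF on immediate early genes, had -0.86 (adjusted p = 0.837). By genotype 0 of 15 cofactors passed, and the largest size was that of Elk1 at 1.14 (SE 0.59).

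Relatives of the 9 genes and other heart transcription factors numbered 24, of which 17 were tested and 0 passed with training, where 0.626% of all probe sets did. Of the 17, 5 were higher and 12 lower, where 50.2% of all probe sets were lower, and the median log2 difference was -0.16. The largest size was in Irx3, a homeobox factor of the ventricular conduction system in mice. It read 2528.8, 4262.4, 2173.7 and 2834.3 in the trained plakoglobin (+/-) mice, 2800.3, 2204.8, 4143.0 and 3188.9 in the trained wt mice, 5761.2 in the untrained plakoglobin (+/-) mouse and 6881.8 in the untrained wt mouse. All 8 trained mice were below both untrained mice, a log2 difference of -1.30 (SE 0.28, limma adjusted p = 0.0904). With the 3 arrays of high ratio left out Irx3 passed (-1.19, adjusted p = 0.0149). Hey1, a Notch target and repressor, had 0.85, Prox1 -0.76 and Hand1, the relative of Hand2, 0.61, with adjusted p values between 0.738 and 0.836. By genotype 0 of 17 passed, with Nfatc4, a calcineurin-driven factor, at -0.58 (SE 0.39).

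Of the genes of heart muscle that these factors are known to drive, 23 of 26 were tested and 1 passed with training, where 0.626% of all probe sets did. This was Nppa, whose promoter is printed above, at a log2 difference of 2.66 (SE 0.26, limma adjusted p = 0.00112). It read 18636.2, 24965.1, 19561.1 and 32030.4 in the trained plakoglobin (+/-) mice, 31919.1, 22146.2, 29441.8 and 34500.7 in the trained wt mice, 3966.0 in the untrained plakoglobin (+/-) mouse and 4350.5 in the untrained wt mouse. The 3 other atrial muscle markers, Sln, Myl4 and Myl7, summed to between 2008 and 3785 in trained mice and between 1770 and 2355 in untrained mice, and none of them was at 0. Their part in the result was not tested. Of the 23 genes 18 were lower in trained mice, where 50.2% of all probe sets were, with a median of -0.13. Corin, which cleaves the Nppa product to its active form, read 14026.7, 13976.0, 19749.1 and 15106.3 in the trained plakoglobin (+/-) mice, 15112.2, 22872.3, 12609.4 and 18337.7 in the trained wt mice, 9458.7 in the untrained plakoglobin (+/-) mouse and 12551.5 in the untrained wt mouse, with all 8 trained above both untrained mice (0.79, SE 0.20, limma adjusted p = 0.157). Myh7, the slow myosin heavy chain, had 1.27 (adjusted p = 0.594), or 0.66 without trained plakoglobin (+/-) replicate 4, and Ryr2, the calcium release channel, 0.54 (adjusted p = 0.575).

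By genotype 0 of the 23 targets passed while 19 were lower in plakoglobin (+/-) mice, where 48.1% of all probe sets were, with a median of -0.11 against 0.01 over all probe sets. Acta1, the skeletal muscle actin that SRF drives, read 6242.8, 9107.0, 7569.8 and 7686.9 in trained plakoglobin (+/-) mice and 8209.4, 13004.1, 15302.2 and 9997.7 in trained wt mice. Its log2 difference was -0.58 (SE 0.23, limma unadjusted p = 0.0303, adjusted p = 1), and the ranges overlapped.

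SRF targets of smooth muscle and of the immediate early response numbered 14, of which 12 were tested and 0 passed with training, where 0.626% of all probe sets did. Of the 12, 6 were higher and 6 lower, where 50.2% of all probe sets were lower, with a median of -0.04. Tagln, a smooth muscle protein, had -1.31 (SE 0.63, limma adjusted p = 0.606) and Ier2, an immediate early gene, -1.16 (SE 0.29, adjusted p = 0.165). Ier2 (1416442_at) read 7289.4, 3832.9, 1128.1 and 1147.6 in the trained plakoglobin (+/-) mice, 7209.8, 1108.1, 4697.5 and 1289.2 in the trained wt mice, 2907.4 in the untrained plakoglobin (+/-) mouse and 2337.8 in the untrained wt mouse. The 4 trained males lay above both untrained mice and the 4 trained females below both, so the value with a sex term is that of the females, and with no sex term it was -0.0358. With the same 3 arrays left out Ier2 passed (-1.13, adjusted p = 0.0449). By sex 3 of the 12 were higher in males past the threshold, where 0.0442% of all probe sets were, namely Fos (5.91, SE 0.66), Egr1 (4.35, SE 0.48) and Ier2 (2.25, SE 0.25), each at a limma adjusted p of 0.0176. Fos read 53322.9, 8640.9, 43868.9 and 8947.0 in males and 145.0, 342.0, 421.6 and 665.6 in females. The higher pair of males, at 53322.9 and 43868.9, were those on arrays of high GAPDH ratio, and in Egr1 the same males read 53348.9 and 35140.9 against 10130.1 and 17138.4 in the other males. With the 3 arrays left out all 3 genes still passed, Fos at 4.62 (limma adjusted p = 0.00473), Egr1 at 3.30 (0.000709) and Ier2 at 1.80 (0.0207). Over all 8 trained mice Srf differed by -0.15 (SE 0.24) between males and females in its brighter probe set. In its second probe set it differed by 0.35 (SE 0.28). The 3 calls were lost without trained wt replicate 1, trained wt replicate 2, trained wt replicate 4, trained plakoglobin (+/-) replicate 3 or trained plakoglobin (+/-) replicate 4, where the adjusted p lay between 0.0799 and 0.13, although Fos stayed between 5.25 and 6.50 with any 1 mouse left out. By genotype 0 of 12 passed, and Tagln had -0.77 (SE 0.54).

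**Figure D4:**
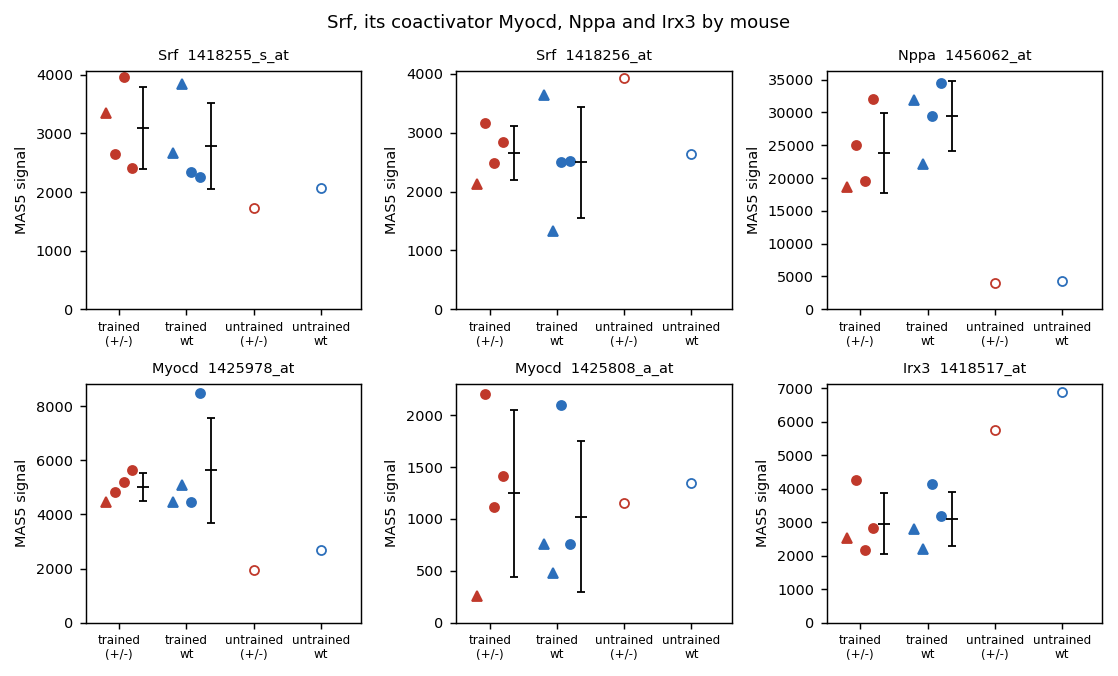
MAS5 signal (linear axis from 0) by mouse for both probe sets of Srf, both of Myocd, Nppa and Irx3, in trained plakoglobin (+/-), trained wt, untrained plakoglobin (+/-) and untrained wt mice. Triangles are arrays of high GAPDH ratio, open circles untrained mice, and bars the mean ± SD of 4 trained mice. The 8 trained mice lie above both untrained mice in Srf 1418255_s_at, Myocd 1425978_at and Nppa and below them in Irx3, but overlap them in the second probe sets of Srf and Myocd.

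Among the 8 trained mice no correlation between the 9 genes was shown, and 8 mice are too few to show that they varied apart. Of 36 pairs of brightest probe sets 0 passed after adjustment over the pairs (exact permutation, lowest adjusted p = 0.0875), 17 had a positive r, and 4 had an unadjusted p under 0.05. The share over all pairs of genes on the array was not computed, so these 4 have no background to be set against. The lowest p was that of Nkx2-5 and Srf, which ran in opposite directions (Pearson r -0.847, exact permutation p = 0.00243, and Spearman rho -0.81, p = 0.0218, adjusted p = 0.415). Without the 2 mice farthest from the median of Nkx2-5 r was -0.811. Gata6 and Hand2 ran together (r 0.803, exact permutation p = 0.0165, adjusted p = 0.297, and rho 0.738, p = 0.0458), and without the 2 farthest mice r was 0.578. Gata4 and Tbx5 had r -0.763 (exact permutation p = 0.0287) and Hand2 and Tbx20 r 0.737 (p = 0.0341), which came to -0.289 and 0.309 without the 2 farthest mice and so did not hold without them. Over only the 5 mice on arrays of low GAPDH ratio, too few for a test, r was -0.951 for Nkx2-5 and Srf, 0.37 for Gata6 and Hand2, -0.658 for Gata4 and Tbx5 and 0.572 for Hand2 and Tbx20.

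The genes whose log2 signal over the 8 trained mice was most like that of each member are given as a description, with Pearson r over 8 mice. They were Epb41l2 (0.946) and Zfp239 (0.941) for Gata4, and Ap4s1 (0.973) and Trio (0.962) for Gata6. For Nkx2-5 they were 1300017J02Rik (0.985) and Snrpd3 (0.971), for Tbx5 Kcnmb4 (0.959) and Zw10 (0.946), and for Tbx20 Cysrt1 (0.969) and Tnrc6b (0.968). Hand2 was closest to Polr2i (0.977) and Acads (0.973), Mef2a to Jmjd1c (0.97) and Pde4dip (0.97), Mef2c to Sacm1l (0.964) and Faf1 (0.961), and Srf to Zbed4 (0.954) and Hp1bp3 (0.944). None of these genes was among the 9 or on their lists of cofactors and targets. With 8 mice and 8365 genes to choose from, the highest of so many values is large by selection. The arrays also differ in GAPDH ratio, and its part in these values was not tested.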

How the data were processed

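Right ventricular RNA was isolated with TRIzol and turned into biotinylated cRNA for 10 Affymetrix mouse arrays, 1 per mouse, per the labels' protocols. The authors computed the deposited linear signals (intensity values) with MAS5 5.0, per the submitters' processing notes. Whether they scaled every array to a common level was not tested, and the median signal per array was 897.8 to 1150.0. The table used here holds no detection calls and names no genome build, so positions are given only for the printed promoters.

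Values under 104 (the 10th percentile of all values) were set to 104 before taking log2. Without 64 control probe sets, the 13576 of 22690 probe sets with a mean log2 signal from the 40th percentile upward entered the tests. Symbols are those of the array annotation. Models were fitted over all of them with limma 3.58.1 in R 4.3.3 (lmFit, eBayes with trend, two-sided, Benjamini-Hochberg threshold of 0.05). Training used all 10 mice with genotype and sex as terms, and genotype and sex used the 8 trained mice in 1 fit. As both untrained mice were female, the training difference is that of the females. Intervals are at 95% and unadjusted. On simulated data with 13576 probe sets, 50% of log2 changes of 2 and 12% of changes of 1 were recovered for training, and 81% and 32% for genotype. The simulated noise was normal and independent between probe sets, with no spread shared by an array. These shares may therefore not hold for the arrays used here.

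The brightest probe set with 1 symbol stood for each gene. Named were all probe sets of the 9 genes, of each list every gene past the threshold and otherwise up to 4 of the largest size per comparison, and for each member the 2 most similar genes. Second probe sets of Myocd, Zfpm1 and Zfpm2 were looked up after the values of the brightest were seen. The members, lists and tests were chosen with earlier results of these data known. Littermates cannot be assigned from the labels, and p-values measure only the spread between these mice. Alternatives were other scalings, floors, filters, variance models, covariates, subsets of arrays, other probe sets of a gene and each mouse left out. Promoter windows came from a RefSeq table (GRCm38.p6).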

Additional observations from a re-analysis of the deposited data

Results flagged for a closer look

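In 4 of 44 groups of 4 trained mice, 1 mouse stood apart from the other 3 by the gap to its nearest neighbour, and chance alone sets about 1 in 20 groups apart. Mef2c 1424852_at was highest in trained plakoglobin (+/-) replicate 1, at 7863.9 against 3650.9 to 4007.9 in the other mice of the group. Tbx5 1425694_at was lowest in the same mouse, at 196.0 against 1762.7 to 1984.7. Tbx5 1425695_at was highest in trained plakoglobin (+/-) replicate 3, at 3998.4 against 2480.3 to 2722.8. Mef2a 1452347_at was lowest in trained wt replicate 1, at 8682.5 against 13573.5 to 13875.2. The mice of 3 of these 4 values were on arrays of high GAPDH ratio, and the part of that ratio was not tested.

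The sex difference of Gata4 1418863_at ran in opposite directions in the genotypes. Males minus females was 0.43 on the log2 scale in plakoglobin (+/-) mice and -0.37 in wt mice. Every male was above every female in plakoglobin (+/-) and below every female in wt, and the difference between the genotypes was not tested. Of the 22 member probe sets it was the only one with such a split. Each group had 2 males and 2 females, so a split of this kind can arise by chance. Its share over all probe sets was not counted.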

How the results depend on the processing

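No member passed under any of 63 alternatives over the 4 comparisons (lowest limma adjusted p = 0.188, without a filter). Of 439 values of single members under an alternative 375 kept their sign and side of the threshold and 64 changed sign, all of them values that had not passed. No paired analysis was possible because the labels do not say which mice are littermates. The training calls rest on 2 untrained mice, and the 3 arrays of high GAPDH ratio were all of trained mice.

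Training, trained minus untrained. Without a sex term Mef2c was -0.0138, Nkx2-5 0.0295, Tbx5 -0.014, Hand2 -0.24 and Egr1 1.42. With the GAPDH ratio as a covariate Mef2c was -0.17, Nkx2-5 0.12 and Tbx20 0.12. Without the arrays of high ratio Mef2c was -0.0282, Nkx2-5 0.14, Tbx20 0.0076 and Hand2 -0.0372. In wt mice only Tbx5 was -0.22, and in plakoglobin (+/-) mice only Mef2c was -0.10, Tbx20 0.15 and Hand2 -0.15. With each mouse left out Mef2c lay between -0.13 and 0.19, Nkx2-5 between -0.28 and 0.15, Tbx5 between -0.10 and 0.25, Tbx20 between -0.57 and 0.16 and Hand2 between -0.31 and 0.43. Other probe sets with a sign opposite to that of the brightest gave -0.55 for Srf, -0.12 for Gata6, -0.54 for Tbx5 and -0.0616, -0.27 and -1.30 for Mef2c. The number of probe sets that passed, 85, was 225 without the arrays of high ratio, 1 in wt mice only and 2 in plakoglobin (+/-) mice only, and 10 to 87 with each mouse left out. The Myocd call was lost with no filter (adjusted p = 0.0638), with eBayes without trend (0.0585), with no sex term (0.0572), in wt mice only (0.999) and in plakoglobin (+/-) mice only (0.45), with values of 1.19 to 1.55 over all alternatives. The Nppa call was lost within 1 genotype (0.226 in wt and 0.331 in plakoglobin (+/-) mice).

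Genotype, plakoglobin (+/-) minus wt. With the GAPDH ratio as a covariate Mef2c was 0.10, Nkx2-5 -0.21 and Tbx20 -0.0317. Without the arrays of high ratio Nkx2-5 was -0.23, Tbx20 -0.0617 and Hand2 0.26. Over all 10 mice Hand2 was 0.0496. In females Gata4 was -0.31 and Hand2 0.22. In males Gata6 was -0.0057, Mef2c 0.47, Nkx2-5 -0.15, Tbx5 -0.0753, Elk1 -0.34 and Tagln 0.20. With each mouse left out Gata4 lay between -0.0522 and 0.28, Mef2c between -0.44 and 0.0389, Nkx2-5 between -0.25 and 0.20, Tbx5 between -0.021 and 0.33, Tbx20 between -0.0593 and 0.60 and Hand2 between -0.57 and 0.50. Other probe sets with a sign opposite to that of the brightest gave 0.29, 1.11 and 0.83 for Mef2c, 0.28 and 0.14 for Mef2a and -0.063 for Gata6. The count of probe sets that passed was 0 under every alternative run.

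By sex the 7 probe sets that passed became 13 with quantile normalization, 17 without the arrays of high ratio and 1 to 12 with each mouse left out. For the interaction 1 passed with quantile normalization and 0 to 1 with each mouse left out. The causes of these differences were not tested.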
